A study of Homo sapiens with 2 samples.

Results

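The nuclear genes of respiratory complex I were compared between 2 RNA sequencing libraries of cells that the labels call MIA PaCa-2, an established human pancreatic cancer cell line. The vehicle library came from cells given vehicle for 48 hours, and the iMQT_020 library from cells given iMQT_020, which the series describes as an inhibitor of mitochondrial glutamine transport, for the same time. Members were the protein-coding rows whose symbol begins with NDUF and holds no hyphen, which gave 47 of the 46427 gene rows. They fall into 37 nuclear subunits of the complex, 8 assembly factors with NDUFAF symbols, and NDUFA4 and NDUFA4L2, which belong to neither. Each treatment had 1 library, so there is no replicate check, no test of the treatment was made, and the treatment cannot be told apart from any other difference between these libraries. The question addressed here is how the messenger RNA levels of the complex differ after exposure to the compound.

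Complex I oxidises NADH in the mitochondrial matrix, passes the electrons to ubiquinone and pumps protons across the inner membrane. Its core subunits hold the flavin, the iron-sulfur clusters and the proton channels, and are split between the nuclear and the mitochondrial genome. The accessory subunits surround that core and stabilise it. Assembly factors help to build the complex from separate modules and are absent from the finished enzyme. The N module binds NADH, the Q module binds ubiquinone, and the proximal and distal parts of the membrane arm carry the pumps.

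Estimated counts summed to 67095283 for vehicle, with 22643 genes detected, and to 59139157 for iMQT_020, with 23101 genes. A gene counted as measured with at least 50 counts in a library, as 14805 genes and 46 of the 47 members did. Each of those 46 had at least 1000 counts in a library. Of the markers of the labelled line, KRT8, KRT18 and VIM were present in both libraries, the lowest at 77.5 TPM (KRT18 with iMQT_020). CD44 had 0.0964 TPM with vehicle and 0.0209 TPM with iMQT_020, and ANXA1 had 3.13 and 2.74 TPM. CDKN2A and MTAP, genes MIA PaCa-2 is known to lack, were at 278 and 33.7 TPM with vehicle and at 208 and 26.2 TPM with iMQT_020, so the identity of the cells is uncertain.

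Nuclear complex I subunits had slightly lower counts in the iMQT_020 library as a group. The log2 ratio of CPM (counts scaled to the size of the library), iMQT_020 over vehicle, had a median of −0.17 over the 37 subunits and −0.02 over all measured genes. Of these subunits, 33 had a ratio below 0, against 52.7% of all measured genes and 50.7% of those as deeply counted as the members (1000 counts or more in either library). After subtracting the median of genes of like GC content and transcript length, the subunit median was −0.02. Of the 37 subunits, 23 were then below 0, against 49.8% of all genes. In bulk RNA, fewer cells that express a gene and less RNA per cell cannot be told apart. The ratios ran from −0.47 for NDUFA11 to 0.38 for NDUFS4. None of the 46 measured members was at least 2-fold apart, against 5.23% of all measured genes (3.09% lower and 2.15% higher). Such differences were rarer among the 9312 genes as deeply counted as the members, with 89 lower and 30 higher. None of the members was 1.5-fold apart, against 16.5% of all measured genes (10.2% lower and 6.3% higher). That share was not counted for the 9312 deeply counted genes. The standard deviation of the ratio was 0.35 over those genes and 0.54 over all measured genes. The 8 NDUFAF assembly factors had a median of −0.22, from −0.53 for NDUFAF7 to 0.23 for NDUFAF4. The standard deviation of their ratios was 0.27, against 0.17 for the subunits.

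**Figure D1:**
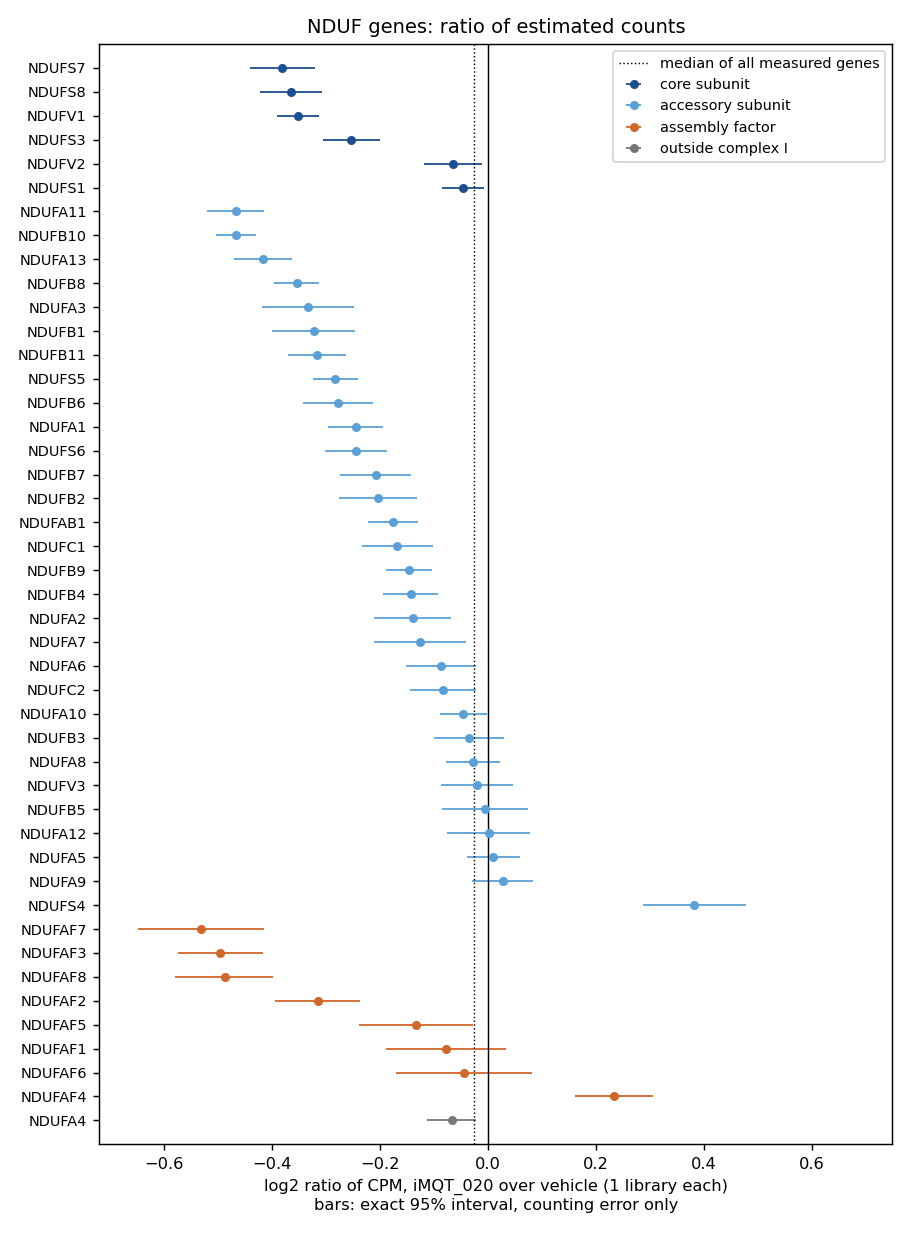
Log2 ratio of CPM, iMQT_020 over vehicle, for 45 of the 46 measured NDUF genes (x axis), ordered within each role; points are 1 library against 1 library, and bars are exact 95% intervals that cover counting error only. NDUFS4 and NDUFAF4 lie to the right of 0 with their whole bars, and NDUFAF7, NDUFAF3 and NDUFAF8 lie farthest to the left.

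Counting error alone was small at this depth. Exact Clopper-Pearson 95% intervals of the ratio lay wholly below 0 for 29 of 37 subunits, against 39.1% of all measured genes and 41.7% of the 9312 deeply counted ones. They lay wholly above 0 for 1 subunit, NDUFS4, against 35% and 40.4%. These intervals say nothing of the variation between cultures or library preparations.

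The members at both ends of each group are shown with their promoters, the 250 bases before the start of the gene on its own strand, so that the sequences stand beside the ratios. NDUFB4 is added because its promoter holds 2 matches to the motif of NRF1, a transcription factor known to control many respiratory chain genes. The promoter of NDUFA3, not printed, also holds 2, and the log2 ratios of the pair were −0.14 (NDUFB4) and −0.33 (NDUFA3). Capitals mark matches to the letters searched for NRF1 on both strands (GCGCA, any base, then GCGC, or its reverse complement) and to CCGGAAGT or ACTTCCGG, searched for ETS factors such as GABPA, the latter with no match in these 5 promoters. Sequences and positions are from RefSeq, build GRCh38.p14, which matched 41 of the 47 members. They are, in the order printed, chr19:5903791-5904040 (minus strand), chr5:53560389-53560638 (plus), chr3:120596086-120596335 (plus), chr2:37231408-37231657 (plus) and chr6:96897892-96898141 (minus).
NDUFA11: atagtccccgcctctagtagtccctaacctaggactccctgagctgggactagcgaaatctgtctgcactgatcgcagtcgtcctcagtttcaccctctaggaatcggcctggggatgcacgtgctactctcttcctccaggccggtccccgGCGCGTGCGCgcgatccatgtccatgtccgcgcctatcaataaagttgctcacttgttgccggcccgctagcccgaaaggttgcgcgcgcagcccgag
NDUFS4: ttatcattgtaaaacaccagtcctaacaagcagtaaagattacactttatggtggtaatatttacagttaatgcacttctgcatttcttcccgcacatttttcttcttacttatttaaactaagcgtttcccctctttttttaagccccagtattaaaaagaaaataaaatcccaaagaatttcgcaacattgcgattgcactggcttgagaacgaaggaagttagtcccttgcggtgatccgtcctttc
NDUFB4: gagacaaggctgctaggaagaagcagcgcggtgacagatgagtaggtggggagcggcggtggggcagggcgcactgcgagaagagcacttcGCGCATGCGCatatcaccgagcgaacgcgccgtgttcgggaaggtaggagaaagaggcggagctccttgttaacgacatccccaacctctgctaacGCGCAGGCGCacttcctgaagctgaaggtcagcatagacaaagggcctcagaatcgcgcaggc
NDUFAF7: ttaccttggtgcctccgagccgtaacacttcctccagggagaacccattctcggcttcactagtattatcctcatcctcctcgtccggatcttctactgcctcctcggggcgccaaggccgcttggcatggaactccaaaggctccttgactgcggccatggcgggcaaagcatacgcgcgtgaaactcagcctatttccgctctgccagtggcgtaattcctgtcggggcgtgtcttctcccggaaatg
NDUFAF4: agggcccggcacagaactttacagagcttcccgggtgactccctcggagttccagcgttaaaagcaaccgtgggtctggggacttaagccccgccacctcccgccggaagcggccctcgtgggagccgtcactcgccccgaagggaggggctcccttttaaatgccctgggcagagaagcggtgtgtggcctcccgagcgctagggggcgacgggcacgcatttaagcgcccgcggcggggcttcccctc

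The NRF1 letters were in 5 of the 32 subunit promoters matched (15.6%), namely those of NDUFA3, NDUFA9, NDUFA11, NDUFA12 and NDUFB4, and in 10.6% of the promoters of measured protein-coding genes. They were in none of the 7 matched NDUFAF promoters. The promoter stretches counted for NDUFB11, NDUFAF1 and NDUFAF8 lie inside the gene positions used here, not before them. The ETS letters were in the promoters of NDUFA13 and NDUFS1, 6.25% of 32, against 7.24%. Subunits with the NRF1 letters had a median log2 ratio of −0.14 and those without −0.20. The extremes of the ratio thus included a promoter with the letters, that of NDUFA11, and a promoter without them, that of NDUFS4. Base composition also differed, with 60.8% GC before NDUFA11 and 36.8% before NDUFS4. The pair of assembly factors went the other way, with 58% before NDUFAF7 and 67.2% before NDUFAF4. Across the 32 subunits, Spearman's rho of the ratio with promoter GC was −0.19, and Pearson's r was −0.35.

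All 7 nuclear core subunits had a log2 ratio below 0, against 52.7% of all measured genes, with a median of −0.25. After centring, that is after subtracting the median of genes of like GC content and transcript length, the median was 0.05 and 3 of 7 were below 0, so the direction of the group turned. NDUFV1, which binds NADH and the flavin, had 12788 counts with vehicle and 8869 with iMQT_020, a log2 ratio of −0.35 (−0.39 to −0.31). NDUFS7, which carries the last iron-sulfur cluster before ubiquinone, had 5517 and 3749 counts, a log2 ratio of −0.38 (−0.44 to −0.32). NDUFS8, another iron-sulfur subunit of the Q module, had 5946 and 4086 counts and a log2 ratio of −0.36 (−0.42 to −0.31). These 3 had the lowest ratios of the core subunits, and their intervals overlapped. After centring they were at −0.04 (NDUFV1), 0.05 (NDUFS7) and 0.07 (NDUFS8).

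NDUFS3, a core subunit of the Q module without a redox centre, had 6764 and 5022 counts and a log2 ratio of −0.25. The core subunits NDUFV2 and NDUFS1, both in the N module, lay near 0. NDUFV2, an iron-sulfur subunit beside NDUFV1, had 6248 and 5287 counts (log2 ratio −0.06, −0.12 to −0.01). NDUFS1, the largest subunit, which holds several iron-sulfur clusters, had 11295 and 9682 counts (−0.05, −0.09 to −0.01).

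Among the 30 accessory subunits the lowest ratios belonged to subunits of the membrane arm. Most accessory subunits lie there, 9 in the proximal and 12 in the distal part. NDUFA11, on chromosome 19 from 5891229 to 5903790 (GRCh38), had 7251 counts with vehicle and 4641 with iMQT_020, a 1.38-fold lower CPM. NDUFB10, a subunit of the distal arm, had 14616 and 9357 counts, also 1.38-fold lower (log2 ratio −0.47, −0.50 to −0.43). NDUFA13, also known as GRIM-19, had 7025 and 4655 counts and a log2 ratio of −0.42. NDUFB8, a distal arm subunit, had 11058 and 7654 counts and a log2 ratio of −0.35. After centring, NDUFA11 was at −0.03, NDUFB10 at −0.18, NDUFA13 at −0.13 and NDUFB8 at −0.18.

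NDUFS4 stood apart at the other end. This N module subunit, whose loss is a known cause of Leigh syndrome, lies on chromosome 5 from 53560639 to 53683338. It had 1687 counts with vehicle and 1947 with iMQT_020, the smaller library, a 1.30-fold higher CPM (log2 ratio 0.38, 0.29 to 0.48). Its TPM was 83.4 with vehicle and 112 with iMQT_020. The next highest subunits were NDUFA9 and NDUFA5 of the Q module, at 0.03 (−0.03 to 0.08) and 0.01 (−0.04 to 0.06), and NDUFA12 of the N module, at 0.00 with 2944 and 2608 counts. Their intervals held 0, and that of NDUFS4 did not overlap them.

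By module, the median of the N module was −0.08 over 10 subunits, with 8 below 0, against 52.7% of all measured genes. The Q module had −0.20 over 6 subunits, with 4 below 0. All 9 subunits of the proximal membrane arm and all 12 of the distal arm were below 0, with medians of −0.25 and −0.21. Centred medians were 0.04 for the N module (4 of 10 below 0), −0.01 for the Q module (3 of 6), −0.11 for the proximal arm (7 of 9) and −0.03 for the distal arm (9 of 12), against 49.8% of all genes below 0. The sign of the N module thus turned, while the order of the module medians was kept. The modules overlapped widely: the N module ran from −0.35 (NDUFV1) to 0.38, and the proximal arm from −0.47 to −0.03 (NDUFA8, a subunit on the side of the intermembrane space).

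The lowest ratios among the assembly factors were those of NDUFAF7, NDUFAF3 and NDUFAF8. NDUFAF7, a mitochondrial methyltransferase, had 1589 counts with vehicle and 973 with iMQT_020, a 1.45-fold lower CPM (log2 ratio −0.53, −0.65 to −0.42). NDUFAF3, which helps to assemble the Q module, had 3385 and 2124 counts (−0.50, −0.58 to −0.42). NDUFAF8, the partner of NDUFAF5, had 2550 and 1609 counts (−0.49, −0.58 to −0.40). These 3 had the lowest ratios of all 46 measured members, below NDUFA11, although the intervals of all 4 overlapped. After centring, NDUFAF7 was at −0.56, NDUFAF3 at −0.28 and NDUFAF8 at −0.20.

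NDUFAF4 acts together with NDUFAF3 in the early steps of assembly, yet its ratio lay on the other side of 0. It had 3042 counts with vehicle and 3166 with iMQT_020, a 1.18-fold higher CPM (log2 ratio 0.23, 0.16 to 0.31), and its TPM was 42.4 and 51.5. NDUFAF2, the paralog of NDUFA12 that holds its place during assembly, had 3185 and 2265 counts and a log2 ratio of −0.32 (−0.39 to −0.24). NDUFA12 itself was at 0.00 (−0.08 to 0.08), so the intervals of this pair did not overlap.

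The other assembly factors lay nearer to 0. NDUFAF5, which hydroxylates NDUFS7, had 1629 and 1314 counts and a log2 ratio of −0.13 (−0.24 to −0.03). NDUFAF1, of the assembly complex for the membrane arm, had 1454 and 1219 counts (−0.08, −0.19 to 0.03), and NDUFAF6 had 1118 and 960 (−0.04, −0.17 to 0.08). Reads of overlapping genes cannot be told apart without strand, and the strand setting is not given in the sources used here. NDUFAF7 overlaps PRKD3, a kinase gene with 10509 and 9913 counts, NDUFAF3 overlaps DALRD3 with 925 and 602, and NDUFAF6 overlaps CCNE2 and TP53INP1. The 5 assembly factors that overlap no other gene had a median of −0.13, against −0.22 for all 8. Whether reads of the overlapping genes bear on these ratios was not tested.

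NDUFA4 and NDUFA4L2 carry the family symbol without being subunits of complex I; NDUFA4 is assigned to complex IV. NDUFA4 had 8637 counts with vehicle and 7297 with iMQT_020 (log2 ratio −0.07, −0.11 to −0.02). NDUFA4L2, a known target of hypoxia-inducible factor, was the member below the minimum count, with 21 and 8 counts. The interval of its log2 ratio ran from −2.60 to 0.02, so a difference was not detectable at this depth. It overlaps SHMT2, which had 16773 and 8198 counts.

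Levels per transcript length differed far more between members than between libraries. Deposited TPM values of the subunits ran from 21.2 (NDUFA9) to 727 (NDUFB10) in the vehicle library, and from 22.3 (NDUFA9) to 589 (NDUFS5, an accessory subunit of the proximal arm) in the iMQT_020 library. The median TPM was 254 with vehicle and 217 with iMQT_020. NDUFS5 was at 693 TPM with vehicle and NDUFB10 at 543 TPM with iMQT_020, so these subunits exchanged the first place. NDUFB5, of the distal arm, was second lowest of the subunits with vehicle at 23.9 TPM.

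The NDUFAF factors had lower median levels than the subunits, 37.2 TPM with vehicle and 42.4 TPM with iMQT_020, but their ranges overlapped. Although this median was higher with iMQT_020, 6 of the 8 factors had a lower TPM, against 47.6% of all measured genes. Their summed level was 569 TPM with vehicle and 470 TPM with iMQT_020. NDUFAF5 was lowest at 13.2 and 11.1 TPM, and NDUFAF2 was highest at 169 and 140 TPM. Of 47 members, 31 held a TPM rank within 1 place in both libraries. Only NDUFAF8 (place 27 and then 31), NDUFS8 (15 and 19) and NDUFS4 (34 and 30) differed by more than 3 places. Summed over the 37 subunits, the level was 9547 TPM with vehicle and 8360 TPM with iMQT_020. The same genes took 0.354% of vehicle counts (95% Wilson interval 0.353% to 0.355%) and 0.309% of iMQT_020 counts (0.308% to 0.311%).

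**Figure D2:**
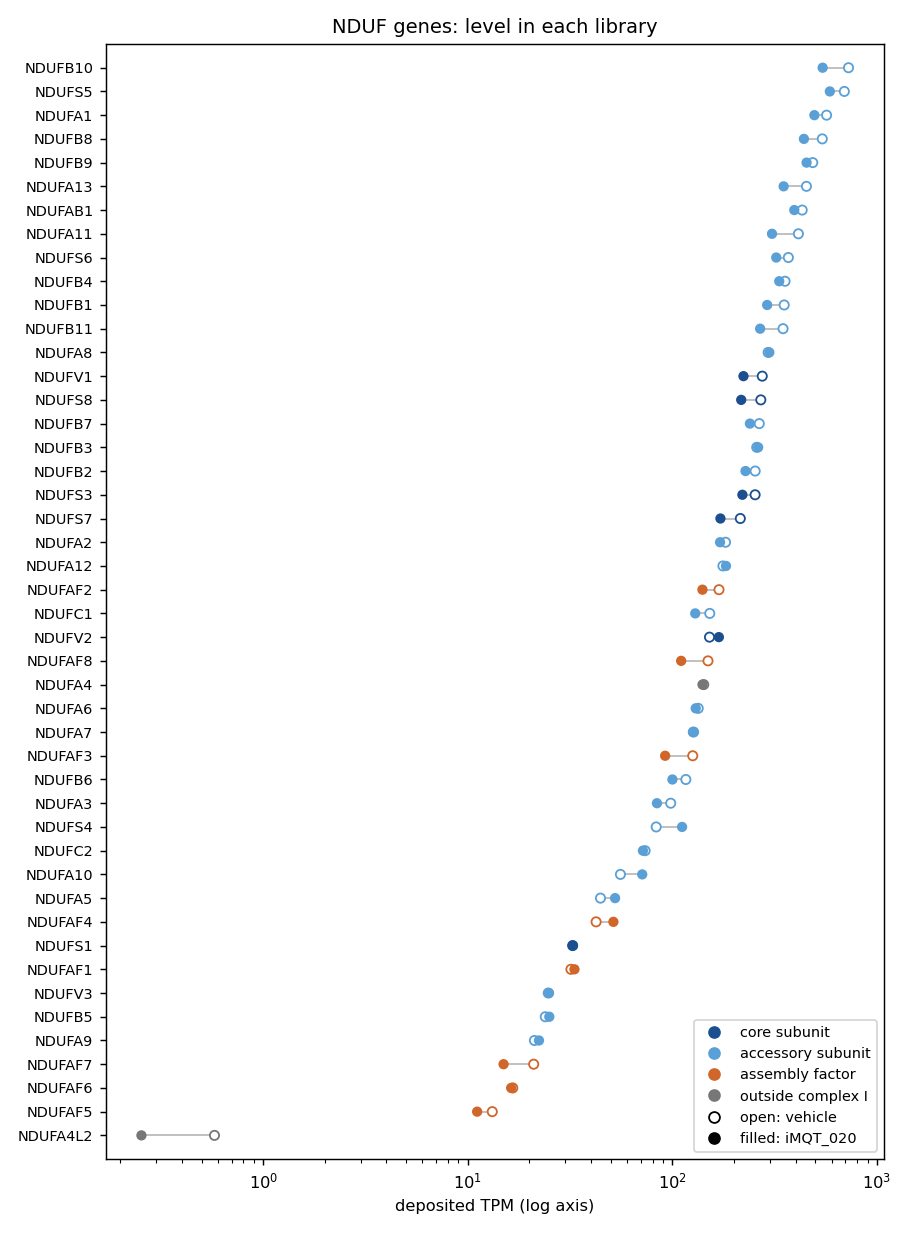
Deposited TPM of 46 of the 47 NDUF genes on a log axis, ordered by the vehicle level; open circles are the vehicle library and filled circles the iMQT_020 library, coloured by role. NDUFB10 and NDUFS5 lie at the top, NDUFA4L2 lies alone at 0.578 and 0.254 TPM, and the distance between circles is small beside the distance between genes.

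The deposited TPM and FPKM gave another direction than the counts for several members near 0. A lower TPM with iMQT_020 was found for 26 of 37 subunits, against 47.6% of all measured genes, and a lower FPKM for 30 of 37, against 52.5%. The direction differed between counts and TPM for NDUFS1, NDUFV2, NDUFA8, NDUFA10, NDUFB3, NDUFB5, NDUFV3 and NDUFAF1. Of these, NDUFS1, NDUFA8, NDUFB3 and NDUFV3 kept the direction of the counts by FPKM. The median log2 ratio of all measured genes was itself 0.02 by TPM, and −0.02 by FPKM and by counts. NDUFS4 and NDUFAF4 were higher, and NDUFA11, NDUFB10, NDUFAF3, NDUFAF7 and NDUFAF8 were lower, by all of these measures.

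NDUFA10, an accessory subunit with a fold like that of nucleoside kinases, differed most between measures. It had 9276 counts with vehicle and 7954 with iMQT_020, a log2 ratio of −0.05. Its TPM was 55.8 with vehicle and 71.2 with iMQT_020, a log2 ratio of 0.35. TPM takes transcript length into account and counts do not, so TPM per count was compared. Relative to the median of all measured genes it was 0.35 higher (log2) with iMQT_020. Shifts of more than 0.1 in either direction were found for 6 of 46 members (13.0%) and for 8.48% of all measured genes. Besides NDUFA10 they were NDUFA5 (0.18), NDUFV2 (0.17), NDUFAF5 (−0.16), NDUFC1 (−0.11) and NDUFB11 (−0.10). NDUFC1 overlaps NAA15, with 20123 counts with vehicle and 18973 with iMQT_020, and NDUFB11 overlaps RBM10, with 7225 and 6737. Whether reads of these overlapping genes bear on the shifts was not tested. Transcripts of 1 gene were not separated in the deposited table, so which of them differed was not tested.

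**Figure D3:**
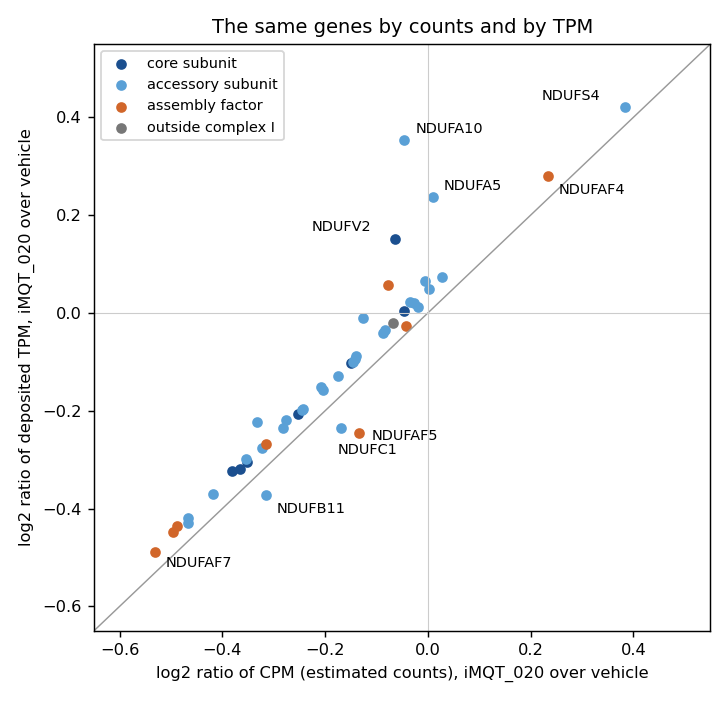
Log2 ratio of CPM (x axis) against log2 ratio of deposited TPM (y axis), both iMQT_020 over vehicle, for the 46 measured NDUF genes, with the line of equal values. Most points run parallel to the line, while NDUFA10, NDUFA5 and NDUFV2 lie above that band and NDUFC1, NDUFAF5 and NDUFB11 below it.

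The ratio varied among the subunits with the base composition of their transcripts. The 11 subunits whose canonical transcript is over 55% GC were all below 0, with a median log2 ratio of −0.35 and a range of −0.47 to −0.13. The 12 subunits under 45% GC had a median of −0.04, with 8 below 0. All measured genes showed the same order, with medians of −0.21 over 55% GC and 0.09 under 45%. Across the 37 subunits, Spearman's rho of the ratio with GC content was −0.74, and Pearson's r was −0.69. These points share their 2 libraries and are not independent, and rho over all 13853 genes with a value was −0.34. The bounds of 55% and 45% were chosen after the values were seen.

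Within each of 10 bins of GC content, with few subunits in any bin, the median of the subunits lay below the median of all genes. Most subunits also have short transcripts: 27 of 37 fell in the shortest of 10 length bins, where all genes had a median of −0.20 and the subunits −0.21. After the ratio was centred in joint bins of GC content and length, the median of the subunits was −0.02, and 23 of 37 were below 0, against 49.8% of all genes. The centred median of the NDUFAF factors was −0.19, with 5 of 8 below 0. NDUFS4, at 42.9% GC, was at 0.52 after centring, and NDUFAF4 was at 0.15. NDUFA11, with a centred value near 0, is at 62.3% GC. Whether base composition, length or the treatment accounts for the lower ratios was not tested.

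**Figure D4:**
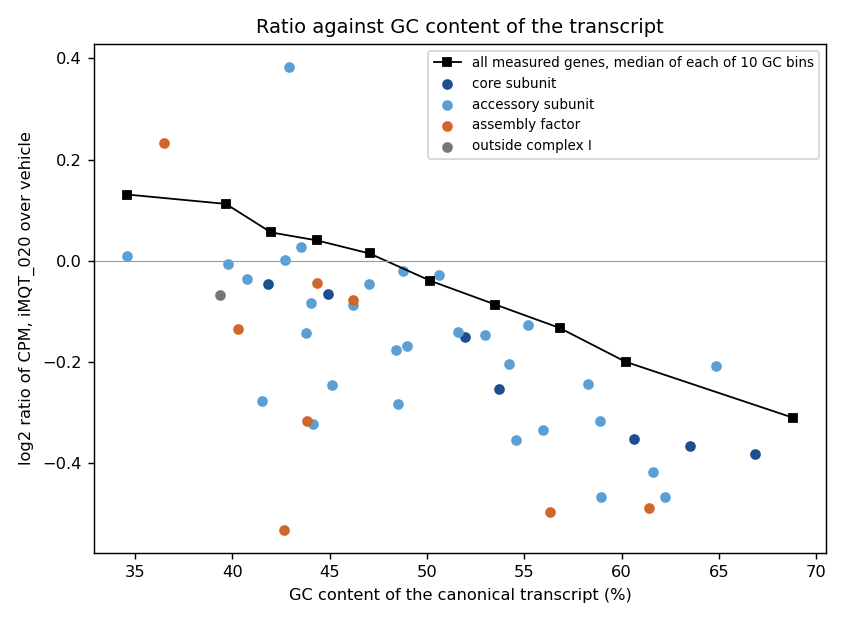
Log2 ratio of CPM, iMQT_020 over vehicle, against the GC content of the canonical transcript, for the 46 measured NDUF genes; black squares are the medians of all genes in 10 GC bins, drawn at the middle of each bin. The NDUF points slope down with the squares, mostly below them, and NDUFS4 (42.9% GC, 0.38) and NDUFAF4 (36.5% GC, 0.23) lie above.

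Complex I was set beside the genes it works with. The 12 other measured assembly factors of complex I had a median of −0.15, with 11 below 0, against 52.7% of all measured genes. After centring, their median was −0.02 and 7 of 12 were below 0. DMAC1, a factor for the distal membrane arm, was lowest with 2642 and 1661 counts (log2 ratio −0.49), and TMEM126A was highest at 0.06. The 14 genes of mitochondrial iron-sulfur cluster synthesis had a median of −0.18, with 10 below 0, and a centred median of −0.05, with 8 of 14 below 0. ISCU, the scaffold on which the clusters are built, was highest at 0.31 with 2811 and 3090 counts. None of the genes in these lists was 2-fold apart, against 5.23% of all measured genes. Of the 9312 genes with 1000 counts or more in either library, 89 were 2-fold lower and 30 higher.

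The nuclear genes of the other complexes had medians of −0.08 for complex II (4 genes), −0.19 for complex III (9), −0.16 for complex IV (10) and −0.18 for ATP synthase (16), beside −0.17 for complex I. After centring these were 0.03, −0.10, −0.03 and −0.05, beside −0.02. The ATP synthase list includes ATP5IF1, an inhibitor of the enzyme and not a subunit. The lowest and highest members were SDHC at −0.34 and SDHD at 0.02 in complex II, and UQCR11 at −0.48 and UQCRB at 0.02 in complex III. In complex IV they were COX5A at −0.32 and COX6B1 at −0.06, and in ATP synthase ATP5F1D at −0.74 and ATP5F1A at −0.05. The median over 78 genes of the mitochondrial ribosome was −0.17, and −0.03 after centring. Uncentred ratios below 0 were found for 69 of these 78, against 52.7% of all measured genes. They were found for 3 of 4 genes in complex II, 7 of 9 in complex III, 10 of 10 in complex IV and 16 of 16 in ATP synthase. No difference between these lists and complex I was tested.

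By uncentred ratios, the 7 subunits that the mitochondrial genome encodes went the other way. These 7 were not centred, while centring brought the median of the nuclear subunits to −0.02. All 7 had higher CPM with iMQT_020, 4 of them at least 2-fold (2.15% of all measured genes were), from ND6 (log2 ratio 0.34) to ND4 (1.40, 1.39 to 1.41), and their summed level was 15264 TPM with vehicle and 30665 TPM with iMQT_020. NDUFS4, the nuclear subunit with the highest ratio, lay beside ND6 and ND3 (0.42), and its interval overlapped both of theirs.

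**Figure D5:**
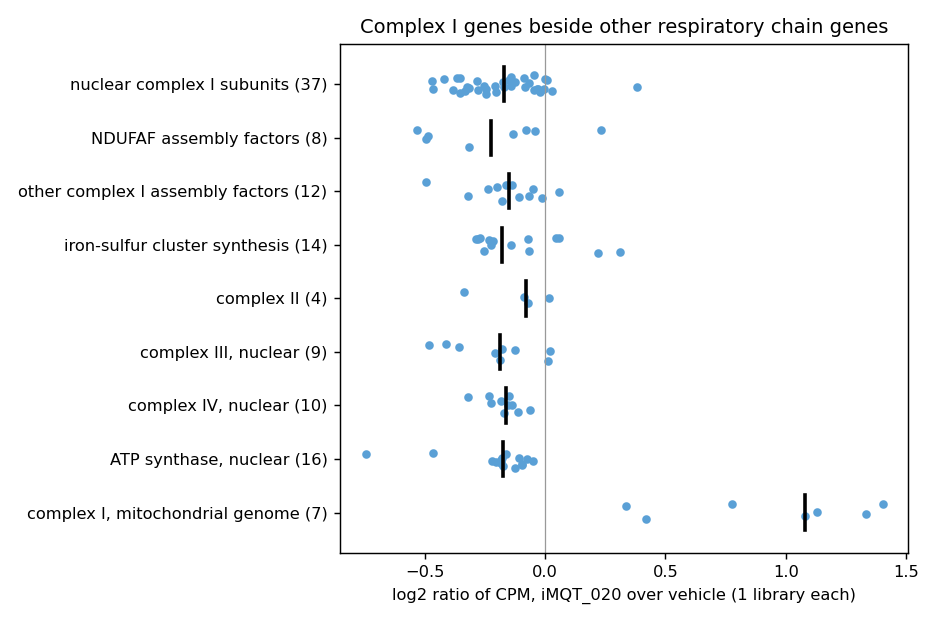
Log2 ratio of CPM, iMQT_020 over vehicle, for complex I genes and other respiratory chain genes; each point is a gene, black bars are medians, the number of genes is in parentheses, and the vertical position within a row is random. Nuclear lists have medians between −0.22 and −0.08, and the 7 mitochondrially encoded subunits of complex I lie at 0.34 to 1.40.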

How the data were processed

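Per the labels' protocols, TRIzol was used for total RNA, and HISAT2 and Bowtie2 for mapping against GRCh38. The submitters' processing notes also name StringTie and edgeR, with neither role nor version. How counts were made, with which strand setting and read length, is not given in the sources used here. Estimated counts, deposited by the authors as whole numbers for each gene, were used unchanged. FPKM and TPM were deposited by the authors beside them. A second deposited table repeats the FPKM.

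Counts were scaled by TMM (edgeR 4.0.16, R 4.3.3; factors 0.998 for vehicle and 1.00 for iMQT_020). The log2 ratio of CPM used a prior count of 0.5, over genes reaching 50 counts in either library. Exact intervals and Wilson intervals are at 95% and cover counting error only. GENCODE 44 canonical transcripts gave GC content and length (93.6% of measured genes). Overlaps and positions came from RefSeq (GRCh38.p14). Other tools were Python 3.11.15, numpy 2.4.6, pandas 2.3.3 and scipy 1.17.1. The calculation was tested on simulated counts.

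The members and lists were chosen with earlier results of these data known. Named were all core subunits and NDUFAF factors, NDUFA4, NDUFA4L2, the 4 accessory subunits at each end of the ratio and the 2 at each end of TPM, the ends of each pathway list, and members whose direction differed between units. Those named for a promoter motif or for a shift in TPM per count were chosen after their values were seen. For 2 of the genes so chosen, values are not reported here. The alternatives were other scalings (total counts, upper quartile, median of ratios from DESeq2 1.42.0), minimum counts, prior counts, units, centring, members and a 1.5-fold rule.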

Additional observations from a re-analysis of the deposited data

How the results depend on the processing

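With 1 library per group no replicate could be left out. No paired analysis was possible because the values come from no test and the labels carry no replicate numbers. The median log2 ratio of the 37 subunits was −0.17 and stayed below 0 under every alternative run. It was −0.025 after centring on GC content and length, a value near that of all genes, and the cause was not tested. Subunits below 0 numbered 33, and 26 by TPM, 30 by FPKM, 23 after centring and 31 by median of ratios. Among the 23 subunits that overlap no other gene 20 were below 0, a smaller count because fewer genes were counted. With no minimum count, 1 member was 2-fold apart in place of 0, NDUFA4L2 with 21 and 8 counts. Of 30 named genes, 10 had the other direction after centring, 8 by TPM, 4 by FPKM, 2 by median of ratios, and 1 each by total counts and by upper quartile.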

Other observations

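Known regulators of respiratory chain genes did not share a direction. Of 8 measured regulators, 5 had a log2 ratio below 0 (62.5%, near the 52.7% of all measured genes), and the median was −0.03, near the −0.02 of all genes. By TPM, 2 of 8 were lower with iMQT_020. GABPA, the DNA-binding subunit of an ETS factor, had 4383 counts with vehicle and 4704 with iMQT_020 (log2 ratio 0.28, 0.22 to 0.34), while its partner GABPB1 had 2362 and 1792 (−0.22, −0.31 to −0.13). By TPM, GABPB1 was higher with iMQT_020, at 22.8 with vehicle and 25.7 with iMQT_020. The coactivator PPARGC1B had 3559 and 2471 counts (−0.35, −0.42 to −0.28). NRF1 and TFAM, which controls mitochondrial DNA transcription and packaging, were at −0.03 with intervals that held 0. PPARGC1A was below the minimum count, with 21 and 34 counts.

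Rows outside the members that carry an NDUF symbol held few counts. Of 43 pseudogene rows, 15 had counts, with sums of 161 (vehicle) and 167 (iMQT_020), of which NDUFV2P1 held 121 and 110. The antisense gene NDUFB2-AS1 had 87 and 120 counts (log2 ratio 0.64, 0.23 to 1.06), while NDUFB2 itself was at −0.20. The read-through gene NDUFC2-KCTD14 had 24 and 9 counts.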
